A study of Homo sapiens with 6 samples.

Results

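The p38 kinase cascade was followed in OVCAR3 cells through 10 genes: MAP3K5 at the top, MAP2K3 and MAP2K6 below it, the p38 genes MAPK14, MAPK11, MAPK12 and MAPK13, and the downstream kinase genes MAPKAPK2, MAPKAPK3 and MAPKAPK5. They were found by gene symbol among the 19973 genes of the deposited table, and all 10 had enough reads to enter the fit of 12874 genes. The set was chosen by its measured values: it was drawn up around MAP2K6 with the read counts of the shNUF2 and shNC libraries already compared, so the differences of these 10 genes are given as a description without a test. OVCAR3 is an established human ovarian carcinoma line. Both groups were stable, puromycin-selected OVCAR3 cultures carrying 1 hairpin each: shNC, the negative control that the labels call WT, and shNUF2, directed against the kinetochore gene NUF2 and labelled NUF2 knockdown, with 3 libraries per group. Nothing in the labels says that the libraries of a group came from separate cultures, so every spread and p-value measures the difference between these libraries, which may be technical. The study asked which genes change when NUF2 is silenced.

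p38 is a stress-activated mitogen-activated protein kinase. Stress signals and inflammatory cytokines switch on a MAP3K such as ASK1 (MAP3K5), which phosphorylates the dual-specificity kinases MKK3 (MAP2K3) and MKK6 (MAP2K6), and these phosphorylate p38α (MAPK14), p38β (MAPK11), p38γ (MAPK12) and p38δ (MAPK13). Active p38 in turn phosphorylates MK2 (MAPKAPK2), MK3 (MAPKAPK3), other kinases and transcription factors, and MK2 is known for stabilizing short-lived mRNAs of cytokines and other inflammatory genes. The cascade works by phosphorylation, so the mRNA levels reported here say how much message of each kinase was present and nothing of its activity.

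The library totals lay between 13057534 and 16995452 counted reads, and the biological coefficient of variation over all genes was 4.93%. Reads of NUF2 itself (ENSG00000143228) numbered 903, 1096 and 1092 in shNC cells and 281, 290 and 384 in shNUF2 cells. It was lower in every shNUF2 library, at 22.9 ± 2.4 against 65.2 ± 2.94 CPM (SD, n = 3), or -1.51 as the log2 fold change (standard error 0.08, adjusted p = 2.17e-15, edgeR quasi-likelihood test). CPM are read counts scaled to a common library size, and values after ± are SDs over the 3 libraries of a group throughout. Of the ovarian carcinoma markers, KRT7 (668 CPM with shNC), MSLN (392), KRT8 (337), KRT18 (107), MUC16 (48.6) and PAX8 (10.1) were present, whereas EPCAM was at 3.39 and CDH1 at 1.38 CPM, and WT1 had at most 7 reads in any library. OVCAR3 is usually described as expressing WT1, EPCAM and CDH1, so these 3 markers go against the label; the identity of the line was not tested, and OVCAR3 is used here as the labels give it. Among 8 markers of other cell types, CD3E and CD68 had at most 2 reads and VWF at most 6 in any library. PTPRC reads numbered 0, 1 and 0 under shNC but 6, 11 and 6 under shNUF2, a level at least 2.95-fold higher against a floor of 3 reads per library, and COL3A1 had 1, 0 and 2 against 15, 15 and 5, at least 4.54-fold higher. DCN was at 3.66 CPM with shNC and 8.48 with shNUF2 (log2 fold change 1.22, standard error 0.20, adjusted p = 7e-06, edgeR). PECAM1 was at 2.53 and 2.5 CPM and COL1A1, a fibroblast collagen, at 81.7 and 62.4 CPM, and the 8 markers summed to 85.1 to 92.3 CPM with shNC and 69.9 to 77.7 with shNUF2. The part of these markers in the values below was not tested, and fewer cells of a kind and less RNA per cell cannot be told apart in such libraries.

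The shNUF2 hairpin is shown because its match to the cascade genes bears on reading their levels. It holds a 21-nucleotide target in the sense arm and the guide in the antisense arm, where the capitals mark the seed, bases 2 to 8 of the guide.
shNUF2 target: cttcttaccattcagcaattt
shNUF2 guide: aAATTGCTgaatggtaagaag
All 21 bases of the target were found in the transcripts of NUF2 and of no other gene tested. The longest stretch of the target in any transcript was 9 bases for MAPKAPK5, a length that 23.1% of the tested genes reached, and 8 bases for MAP2K6, MAPK14 and MAPKAPK2, which equals the median over all genes. The 7-base seed match AGCAATT was in the longest 3′ UTR of 15.3% of 12806 genes and of 0 of the 10 cascade genes, including the 12108-base 3′ UTR of MAP2K6 and the 9177-base 3′ UTR of MAPKAPK5.

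MAP2K6 was the cascade gene with the greatest difference and MAP2K3, its closest relative in the same tier, differed the other way. MAP2K6 (ENSG00000108984, chr17:69414697-69553865, plus strand) was counted 8813, 10800 and 11446 times under shNC but only 648, 714 and 864 times under shNUF2. It stood among the 172 genes with the most reads in each shNC library and at ranks 4214 to 4907 with shNUF2. In CPM this was 620, 676 and 665 against 48.1, 54.9 and 57.4, a mean of 654 ± 29.7 against 53.5 ± 4.85. The groups lay far apart, with a level 12.2-fold lower and a log2 fold change of -3.61 (standard error 0.06), the 4th lowest of the 12874 genes tested. MAP2K3 (ENSG00000034152, chr17:21284672-21315232, plus strand) was counted 1062, 1127 and 1213 times under shNC and 1698, 1763 and 1953 times under shNUF2. Every shNUF2 library was above every shNC library, at 130 ± 4.87 against 71.9 ± 2.42 CPM, a log2 fold change of 0.86 (standard error 0.05) that stayed inside the fold limit of 1.

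Per gene length, MAP2K6 went from the more abundant to the rarer message of this tier. Its FPKM, the read count divided by gene length and library total, were 37.5, 41.3 and 40.4 with shNC and 2.82, 3.28 and 3.41 with shNUF2, and those of MAP2K3 were 19.9, 19.0 and 18.9 against 32.6, 35.8 and 34.0. MAP2K6 made up 65.3%, 68.5% and 68.1% of the summed FPKM of both genes with shNC and 7.96%, 8.41% and 9.11% with shNUF2. The ratio of MAP2K6 to MAP2K3 was 2.06 ± 0.159 with shNC and 0.0928 ± 0.00695 with shNUF2, a 22.2-fold difference. The higher MAP2K3 level did not make up the sum, which was 57.4, 60.3 and 59.3 FPKM with shNC and 35.4, 39.0 and 37.4 with shNUF2. The MAP2K6 values depend on the deposited gene length of 16660 bp, which covers all annotated exons, while its 6 coding transcripts in GENCODE 29 span 632 to 13400 bp, so its level against other genes is less certain than its difference between the groups.

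**Figure D1:**
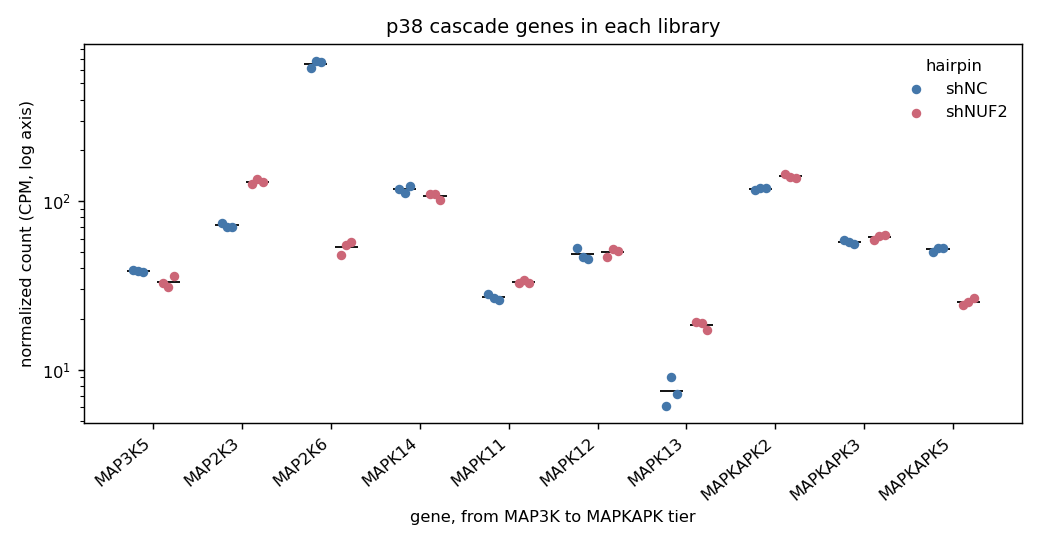
CPM of the 10 cascade genes (log axis) in each of the 6 libraries, shNC in blue and shNUF2 in red, with a black line at the mean of each group. MAP2K6 lies between 620 and 676 CPM with shNC and between 48.1 and 57.4 CPM with shNUF2, while MAP2K3 and MAPK13 are higher and MAPKAPK5 lower in every shNUF2 library.

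Upstream of this pair, MAP3K5 (ENSG00000197442, chr6:136557046-136792477, minus strand), a kinase held inactive by thioredoxin until oxidants release it, differed little in level. Its CPM were 38.8, 38.5 and 38.2 with shNC and 32.6, 31.1 and 36.2 with shNUF2. All shNUF2 libraries were below the shNC libraries, by 0.21 on the log2 scale (standard error 0.08), and the shNUF2 libraries were spread more widely (SD 2.62 against 0.287 CPM).

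The summed FPKM of the p38 genes overlapped narrowly between the groups while its makeup differed. MAPK14, encoding p38α, the isoform found in most tissues, had 118, 112 and 123 CPM with shNC and 111, 110 and 102 with shNUF2, a log2 fold change of -0.13 (standard error 0.05) with the groups just apart. MAPK11, encoding p38β, had 28.2, 26.8 and 26.1 CPM with shNC and 32.5, 33.9 and 32.5 with shNUF2, all above, with 0.29 (standard error 0.08). MAPK12, encoding p38γ, a form best known from skeletal muscle, had 48.5 ± 3.87 CPM with shNC and 49.7 ± 2.86 with shNUF2 and its libraries overlapped; its log2 fold change of 0.04 (standard error 0.07) became -0.01 without shNC replicate 3. Thus the 3 isoforms with the higher FPKM moved by at most 0.29 on the log2 scale.

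MAPK13, encoding p38δ, the epithelial form, was the exception among them. Only 87, 145 and 124 reads fell on it in shNC cells, against 260, 245 and 257 in shNUF2 cells, or 7.47 ± 1.49 against 18.4 ± 1.17 CPM. The groups did not overlap and the log2 fold change was 1.29 (standard error 0.14), although the shNC libraries varied by 20.0% of their mean, the widest spread of any of the 10 genes. In FPKM the p38 genes summed to 34.4, 33.2 and 33.9 with shNC and 35.1, 36.7 and 34.3 with shNUF2. These sums overlapped only by 34.3 against 34.4, and FPKM are scaled to library totals alone. The further scaling factors used for CPM were 1.008 to 1.018 with shNC and 0.9776 to 0.9962 with shNUF2, so the overlap depends on the scaling. MAPK14 gave 51.2% ± 1.86 of the sum with shNC and 43.6% ± 1.17 with shNUF2, MAPK11 30.1% ± 0.962 and 34.2% ± 0.588, MAPK12 15.6% ± 0.992 and 14.9% ± 0.908, and MAPK13 3.18% ± 0.712 and 7.3% ± 0.319. On the deposited gene lengths, MAPK14 thus had the highest p38 FPKM in all 6 libraries and MAPK13 the lowest. The deposited length of MAPK12 is 9315 bp, while its coding transcripts in GENCODE 29 span 605 to 1918 bp. For MAPK14 it is 6860 bp, against 585 to 4319 bp. The shares and the order of the p38 messages therefore depend on the length used, and which of them was the most abundant is uncertain.

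**Figure D2:**
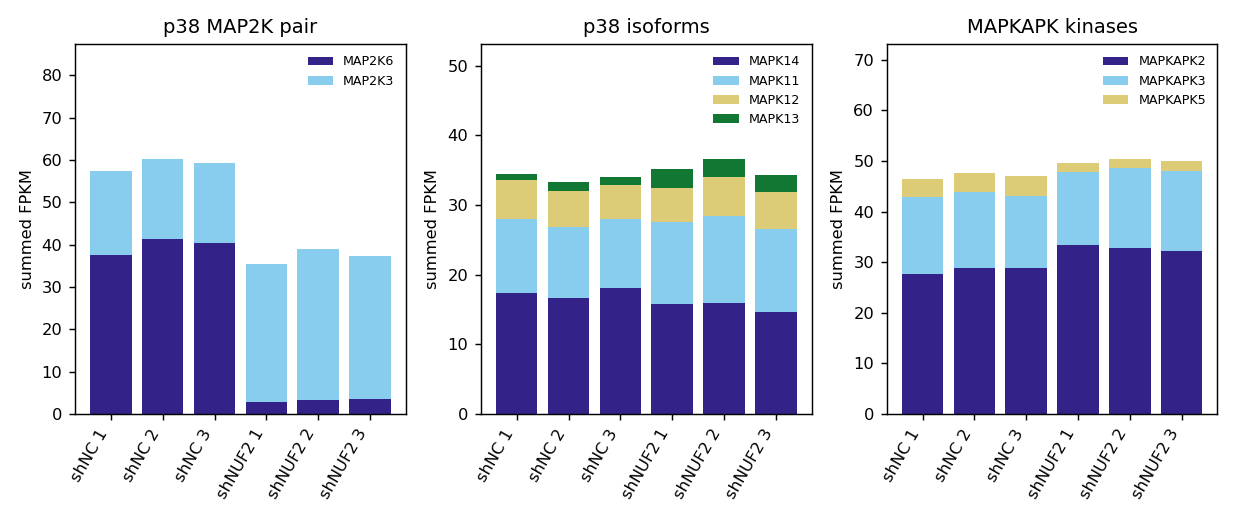
Stacked FPKM of the MAP2K pair, the p38 isoforms and the MAPKAPK kinases in each library (FPKM axes start at 0). The MAP2K bars change from mostly MAP2K6 (67.3% on average with shNC) to mostly MAP2K3 (91.5% with shNUF2) and become shorter, while the p38 bars overlap in height and the MAPKAPK bars are slightly taller with shNUF2.

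Of the downstream kinases, MAPKAPK5 was lower with shNUF2, MAPKAPK2 was slightly higher and MAPKAPK3 overlapped. MAPKAPK5 (ENSG00000089022, chr12:111842228-111902222, plus strand) encodes MK5, also called PRAK, which besides p38 binds the atypical kinases ERK3 (MAPK6) and ERK4 (MAPK4). Its reads numbered 708, 841 and 910 under shNC and 326, 328 and 399 under shNUF2, or 51.8 ± 1.71 against 25.3 ± 1.17 CPM. The groups lay well apart, at 2.05-fold and a log2 fold change of -1.03 (standard error 0.07), just past the fold limit. MAPKAPK2, encoding the main kinase of the small heat shock protein HSPB1, had 116, 120 and 120 CPM with shNC and 144, 139 and 138 with shNUF2, which was 0.24 on the log2 scale (standard error 0.05). MAPKAPK3, encoding the close relative of MK2, had 57.1 ± 1.64 and 61.3 ± 2.44 CPM, with 0.10 (standard error 0.06). The summed FPKM of the 3 kinases was 46.4, 47.7 and 47.0 with shNC and 49.6, 50.4 and 49.9 with shNUF2, of which MAPKAPK5 was 8.11% ± 0.22 and 3.64% ± 0.177.

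Across the cascade, 2 of 10 genes had a log2 fold change below -1 (MAP2K6 and MAPKAPK5) and 1 had one above 1 (MAPK13). Over all 12874 genes, 4.16% were called lower and 9.41% higher, where a call needs such a fold change and also a p under 0.05 before adjustment. The 10 genes were chosen on this contrast, so nothing is read from their count beside these shares. All shNUF2 libraries lay below all shNC libraries for 4 of the 10 genes (MAP2K6, MAP3K5, MAPK14 and MAPKAPK5) and above them for another 4 (MAP2K3, MAPK11, MAPK13 and MAPKAPK2). The same held for 35.4% and 35.2% of all genes, so separation of the libraries was common in this experiment. The median log2 fold change was 0.07 over the 10 genes and -0.01 over all genes tested.

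**Figure D3:**
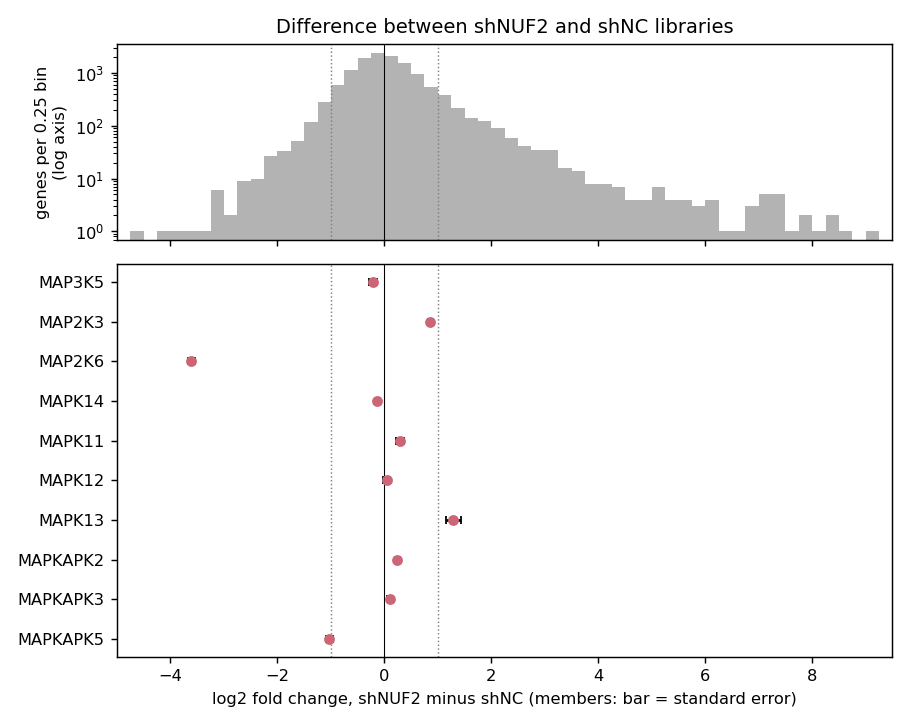
Top, number of the 12874 tested genes per bin of log2 fold change (shNUF2 minus shNC; log axis for the counts). Bottom, the log2 fold change of each cascade gene with its standard error as a bar, and dotted lines at -1 and 1. MAP2K6 at -3.61 lies in the thin lower tail of all genes, MAPK13 (1.29) and MAPKAPK5 (-1.03) lie just past the lines and the other 7 inside them.

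The order of the messages per length also changed. With shNC it ran from MAP2K6 (39.7 FPKM) through MAPKAPK2 (28.5), MAP2K3 (19.3), MAPK14 (17.3), MAPKAPK3 (14.8), MAPK11 (10.2), MAP3K5 (7.41), MAPK12 (5.27) and MAPKAPK5 (3.82) to MAPK13 (1.08), and no neighbors in this order overlapped over their 3 libraries. With shNUF2, MAP2K3 (34.1) and MAPKAPK2 (32.7) came first and overlapped, followed by MAPKAPK3 (15.5) and MAPK14 (15.4), which overlapped too. After them came MAPK11 (12.1), MAP3K5 (6.24), MAPK12 (5.26), MAP2K6 (3.17), MAPK13 (2.58) and MAPKAPK5 (1.82), each apart from the next. On the deposited gene lengths, MAP2K6 thus went from the first to the eighth place, and the last place passed from MAPK13 to MAPKAPK5. The places of the genes depend on these lengths. That of MAPK12, 9315 bp, is far above its longest coding transcript in GENCODE 29, 1918 bp. For MAPKAPK5 it is 13740 bp, against 11349 bp.

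The promoters of MAP2K6 and MAP2K3 are shown because these related genes differed in opposite directions. RefSeq windows (GRCh38.p14, 250 bases upstream of an annotated start) were matched for 9 of the 10 genes. The capitals mark the motifs found on either strand.
MAP2K6, chr17:69414447-69414696, plus strand: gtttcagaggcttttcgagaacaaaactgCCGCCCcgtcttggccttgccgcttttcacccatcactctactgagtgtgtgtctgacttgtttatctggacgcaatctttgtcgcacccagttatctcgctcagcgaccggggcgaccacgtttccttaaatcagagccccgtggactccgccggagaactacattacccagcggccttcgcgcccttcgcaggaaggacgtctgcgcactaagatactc
MAP2K3, chr17:21284461-21284710, plus strand: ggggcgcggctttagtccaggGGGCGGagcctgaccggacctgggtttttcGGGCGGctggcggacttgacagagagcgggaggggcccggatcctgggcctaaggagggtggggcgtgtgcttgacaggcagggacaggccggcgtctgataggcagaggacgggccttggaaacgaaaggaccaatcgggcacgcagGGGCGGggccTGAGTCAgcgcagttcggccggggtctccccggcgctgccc
The motifs searched on both strands were the AP-1 site TGANTCA, the CRE TGACGTCA, the ATF4-C/EBP composite TGATGNAAT, the E-box CACGTG, the GC box GGGCGG and the TATA box TATAAA. The MAP2K6 window held 20 CpG and 55.6% GC, with a single GC box at position -221 (its first base, counted back from the first transcribed base), read as CCGCCC on the plus strand. The MAP2K3 window held 22 CpG and 70.4% GC, with 3 GC boxes and 1 AP-1 site at -41, the sequence bound by FOS and JUN proteins. A further MAP2K3 start has the window chr17:21287786-21288035, with 5 CpG and 0 matches to any of the motifs. Among 35116 RefSeq windows, 6.57% held the AP-1 letters and 42.6% the GC box, and the medians were 11 CpG and 58.0% GC. A further MAP2K6 start has the window chr17:69502012-69502261, with 3 CpG and 43.2% GC. That window held 2 matches to the TATA box, at -200 and -164, both read as TTTATA on the plus strand. A TATA box match was in 10.7% of windows. The matches are letters in a window, and the counts do not say which start of either gene was in use.

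The tested genes around MAP2K6 lay above its log2 fold change, as nearly all genes did, since it was the 4th lowest of 12874. This set and the one around MAPKAPK5 were chosen after the tables had been read. Within 1000 kb of MAP2K6, 11 genes were listed and 5 tested, with log2 fold changes of -0.36 for ARSG, 0.59 for WIPI1, -0.19 for PRKAR1A, -0.16 for ABCA10 and -0.14 (standard error 0.05) for ABCA5, whose start lies at -87.45 kb. Around MAPKAPK5, 18 genes were listed and 13 tested, and they ranged from -0.82 for ERP29 to 0.77 for SH2B3. All of these values lay within the fold limit, which most genes of the table did too (4.16% called lower and 9.41% higher), and the remaining listed neighbors had too few reads to be tested. MAPK13 and MAPK14 lie 16573 bp apart on chromosome 6 and MAPK11 and MAPK12 lie 1997 bp apart on chromosome 22, and within each of these pairs the log2 fold changes were unequal (1.29 and -0.13, and 0.29 and 0.04).

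**Figure D4:**
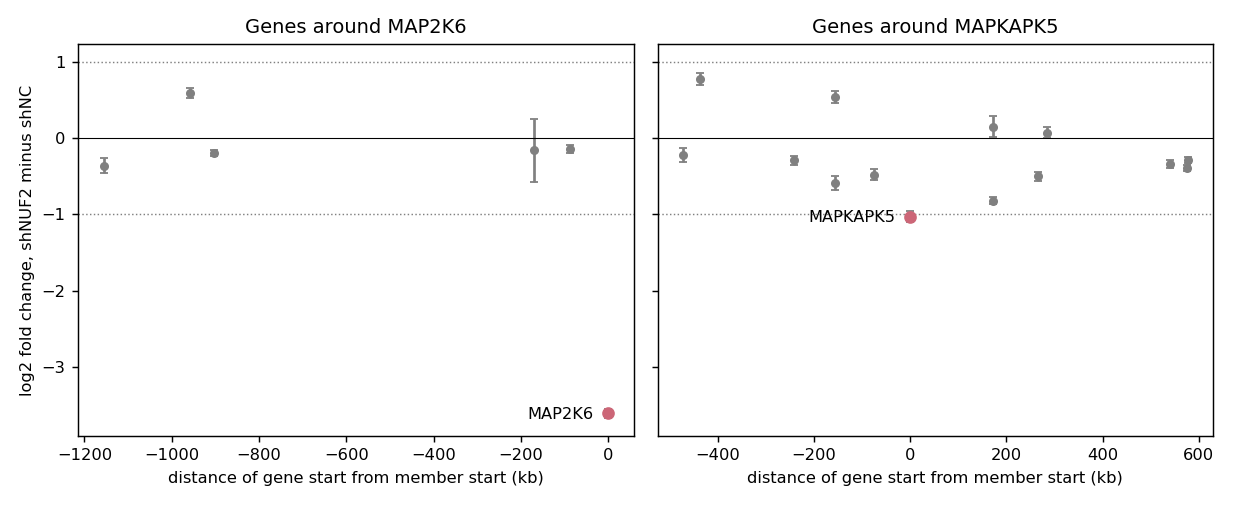
Log2 fold change (shNUF2 minus shNC, bars are standard errors) of the tested genes within 1000 kb of MAP2K6 and MAPKAPK5 (red), against the distance of their start from the start of that gene in kb. MAP2K6 at -3.61 stands far below its 5 tested neighbors, while MAPKAPK5 at -1.03 is close to the lowest of its 13, ERP29 at -0.82.

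Some of the counts are less certain than others. For MAPKAPK5, 20.9% of the exon bases are shared with MAPKAPK5-AS1 on the opposite strand and ADAM1A on the same strand, 20.5% of its 50-base transcript windows also occur in transcripts of other genes, and a pseudogene, MAPKAPK5P1, is annotated. For MAPK12, 29.3% of the exon bases are shared with HDAC10 on the same strand, a gene with 1 to 12 reads per library, and for MAPKAPK3, 5.56% are shared with CISH on the opposite strand, which had a log2 fold change of 0.07 (standard error 0.22, adjusted p = 0.788, edgeR). MAP2K6 had no exon shared with another gene and 0.464% of such windows, and MAP2K3 had 3.36%. The library kit marks strand, but the strand setting of the counting is not given in the sources used here.

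The genes whose pattern over the 6 libraries lay closest to that of MAP2K6, among 11775 genes by the Euclidean distance of log2 CPM centered on the shNC mean, were SLC6A9, a glycine transporter (distance 0.766), SPINK5, a protease inhibitor (0.816), HGD, an enzyme of tyrosine breakdown (0.9), SLC12A3, a sodium-chloride cotransporter (0.966), and ALPI, intestinal alkaline phosphatase (1.02). Their log2 fold changes were -3.25, -3.15, -3.88, -3.12 and -3.14. SPINK5, for example, was at 211, 230 and 220 CPM with shNC and 21.7, 26.3 and 26.3 with shNUF2. The measure rests on the same libraries and mostly on the difference between the groups, so it names genes of like size of decrease.

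Beyond the 10 genes, 100 other genes of the pathway were listed in 9 groups, of which 95 were tested. Of these, 21 (22.1%) were called higher by edgeR, with 9.41% over all genes, and 0 were called lower, with 4.16% over all genes. At an unadjusted p under 0.05, edgeR gave 24 lower and 58 higher. DESeq2 gave 0 called lower and 22 lower at an unadjusted p under 0.05. At an adjusted p under 0.05, 56 rose and 22 fell, with 33.9% and 33.8% of all genes. Their median log2 fold change was 0.27. Of the 21 calls, 11 were AU-rich mRNAs, a list made with part of its increases known; without that list, 10 of 83 genes (12.0%) were called higher, beside 9.41% over all genes, and the median was 0.18. PPARGC1A passed the lower limit at -1.03 without shNC replicate 3, and MAPK4 at -1.21 without shNUF2 replicate 2.

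The listed MAP3K genes and their activators held both increases and decreases, and of the 5 scaffolds 4 rose at the adjusted p. Of 16 further MAP3K genes, 1 was called higher (6.25%, beside 9.41% of all genes), MAP3K9, a mixed-lineage kinase (log2 fold change 1.04, standard error 0.07, adjusted p = 7.07e-13, edgeR as for all values here), and at the adjusted p alone 9 rose (56.2%, beside 33.9% of all genes) and 2 fell (12.5%, beside 33.8%). Of 9 tested activators of this tier, GADD45A rose from 43.1 to 133 CPM (1.62, standard error 0.06, adjusted p = 1.99e-18) and GADD45B from 30.1 to 65.6 (1.13, 0.07, 7.84e-14), both stress-induced proteins that bind MAP3K4. At the adjusted p 6 of the 9 rose and 3 fell, TRAF2, TAB1 and TXN, of which the adaptor gene TRAF2 had -0.54 (0.05, 2.16e-10). Of the scaffolds, which hold kinases of a cascade together, SPAG9 rose (1.09, 0.05, 1.36e-15), as did MAPK8IP1 (0.71, 0.21, 0.00397) and CCM2 (0.42, 0.10, 0.000417), while MAPK8IP3 had 0.07 (0.05, adjusted p = 0.274). MAPK8IP2 went from 1, 1 and 2 reads to 18, 25 and 27, at least 8.82-fold higher against a floor of 3 reads per library.

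Related kinases of parallel cascades held both increases and decreases. MAP2K4, which activates JNK and also p38, fell from 41.4 to 30.7 CPM (log2 fold change -0.43, standard error 0.08, adjusted p = 2.83e-05), and MAP2K7, an activator of JNK, rose from 46.5 to 58.9 (0.34, 0.06, 5e-05). MAPK7, which encodes ERK5, rose from 20.1 to 44.8 CPM (1.16, 0.08, 3.31e-12) and was the only called gene of the 14 tested in this group (7.14%, beside 9.41% of all genes called higher). Of the binding partners of MK5, MAPK6 rose from 137 to 197 CPM (0.52, 0.05, 1.87e-09) and MAPK4 had 33, 26 and 30 reads against 13, 27 and 10 (-0.63, 0.37, adjusted p = 0.138).

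Of the 10 tested phosphatases that act on p38, 3 were called higher (9.41% over all genes). DUSP4 rose from 130 to 306 CPM (log2 fold change 1.23, standard error 0.05, adjusted p = 3.92e-18), DUSP10, which acts on p38 and JNK, from 11.3 to 48.7 (2.11, 0.11, 3.81e-15), and the tyrosine phosphatase gene PTPRR from 1.73 to 8.32 (2.25, 0.22, 9.62e-10). DUSP1, an early stress-induced phosphatase, rose by less (0.48, 0.05, 9.42e-09). The median of the group was -0.06, beside -0.01 for all genes, and at the adjusted p 4 of the 10 rose (33.9% of all genes), 2 fell (33.8% of all genes) and 4 did not pass.

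Downstream of p38, the kinases and direct substrates held 1 called gene, beside 9.41% of all genes called higher and 4.16% lower. Of the 4 other kinases activated by p38, RPS6KA5 rose by 0.53 on the log2 scale (standard error 0.11, adjusted p = 0.00016), RPS6KA4 by 0.26 (0.06, 0.00114) and MKNK2 by 0.15 (0.05, 0.0126), and MKNK1 had 0.21 (0.10, adjusted p = 0.0643). Of 14 transcription factor substrates, 5 rose and 5 fell at the adjusted p, 35.7% each way and near the 33.9% and 33.8% of all genes, and 1 (7.14%, beside 9.41% of all genes) was called higher, MEF2C, with 5, 1 and 4 reads against 16, 29 and 14 (2.71, 0.56, 0.000118). Of 11 substrates of the MAPKAPK kinases, 5 rose (45.5%) and 6 fell (54.5%) at the adjusted p, with a median of -0.27. Of those that fell, BAG2 (-0.64, standard error 0.07, adjusted p = 1.68e-08) and CDC25B (-0.61, 0.05, 1.28e-11) were named after their values were seen. Of those that rose, HSPB1, the small heat shock protein phosphorylated by MK2, rose from 54.6 to 107 CPM (0.98, 0.06, 4.38e-14) and ZFP36, the mRNA-destabilizing protein that MK2 inactivates, from 97.1 to 160 (0.73, 0.06, 6.99e-11).

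The mRNAs with AU-rich elements that the p38 and MK2 axis is known to stabilize formed the group with the highest median, 2.61. Of 12 tested, 11 were called higher (91.7%, beside 9.41% of all genes), and VEGFA was within the fold limit at 0.38 (standard error 0.05, adjusted p = 2.42e-07). CXCL8, the neutrophil chemokine, had 6.75, 6.13 and 5.29 CPM with shNC and 441, 402 and 358 with shNUF2, a log2 fold change of 6.05 (standard error 0.09, adjusted p = 7.87e-27). IL1A rose from 21.7 to 203 CPM (3.23, 0.08, 2.74e-22) and PTGS2, the inducible cyclooxygenase, from 94.9 to 355 (1.91, 0.06, 4.29e-20). These genes have other known inducers besides p38, and the share called is no independent evidence of its direction.

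**Figure D5:**
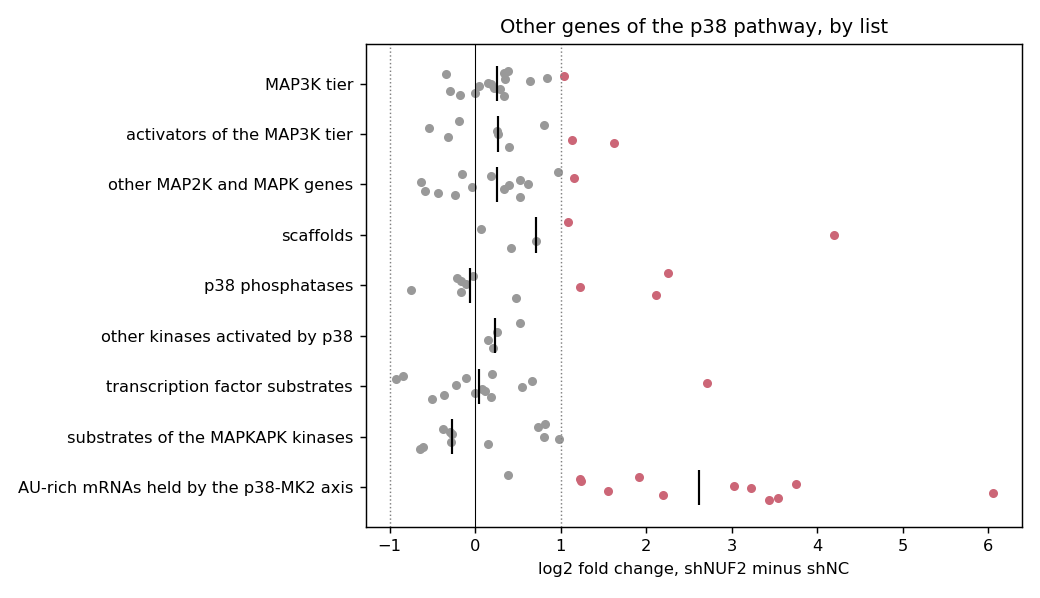
Log2 fold change (shNUF2 minus shNC) of the 95 other tested pathway genes in 9 groups, with called genes in red, the rest in gray, a black bar at each group's median and dotted lines at -1 and 1. No gene lies below -1, and the AU-rich mRNAs have the highest median at 2.61.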

How the data were processed

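RNA of 3 shNC and 3 shNUF2 libraries of OVCAR3 cells was prepared with a stranded mRNA kit and sequenced on a NovaSeq instrument. The authors deposited read counts per gene, without normalization, and FPKM, which equal the count divided by gene length and library total to a relative deviation of 2.71e-07. The submitters' processing notes name cutadapt, HISAT, HTSeq and GRCh38.p13, and versions are not given in the sources used here. Reads shared by overlapping or similar genes may have been split or dropped.

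Differences were fitted to the counts by edgeR 4.0.16 under R 4.3.3 (filterByExpr, TMM, quasi-likelihood test, all 6 libraries, no covariate), and p-values were adjusted by the Benjamini-Hochberg method over 12874 genes. Standard errors were obtained by dividing the log2 fold change by the root of its F statistic. The call limits, an absolute log2 fold change over 1 with a p under 0.05 before adjustment, take the thresholds of the study's methods, which do not name a scale for the fold change; the log2 scale is a reading made here. The fit was also run on simulated counts in which 200 genes were changed, and its outcome is not given here. Groups came from the sample labels. An exact permutation test of 3 against 3 libraries cannot go below 0.1, so none was used. Alternatives used DESeq2 1.42.0, limma 3.58.1, other scalings, filters and pseudocounts, a replicate block and each library left out. Replicate pairs within a group differed by more than counting noise.

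The 10 genes, the gene lists and the naming rule were chosen with earlier results of these data known. Named were the 10 genes, NUF2, up to 3 called genes per direction and list by smallest p, all genes of lists of 5 or fewer, close partners of the 10 genes, the 5 genes nearest to MAP2K6 in pattern, and annotated overlapping genes. PPARGC1A, VEGFA, BAG2, CDC25B, TRAF2, TAB1, TXN, the other genes near MAP2K6 and MAPKAPK5, and the markers stand outside that rule or in lists of their own. Transcript overlaps and UTRs were read from GENCODE release 29 and promoters from RefSeq GRCh38.p14. The hairpin sequence was read from the study's supplementary table of shRNAs.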

Additional observations from a re-analysis of the deposited data

How the results depend on the processing

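Of 94 counts recomputed under the alternatives, 87 stayed within 1.5 times the value reported, and of 150 fold changes of the 10 cascade genes 142 moved by less than the spread between replicates. Requiring at least 1 CPM in every library left 756 genes called higher. With limma on log2(FPKM + 1), where the added 1 shrinks low values, 430 genes were called higher and 206 lower, MAP2K6 was at -3.29, and the cascade held 1 gene below -1 and 0 above 1, since MAPKAPK5 was at -0.77 and MAPK13 at 0.79. Leaving out each library in turn gave 1198 to 1332 genes called higher and 534 to 581 lower, 20 to 22 of the other pathway genes called higher and 0 to 1 lower, a range of -3.67 to -3.54 for MAP2K6 and of -1.60 to -1.44 for NUF2, and 2 cascade genes below -1 and 1 above 1 each time. The gene past the lower limit was PPARGC1A (-1.03) without shNC replicate 3 and MAPK4 (-1.21) without shNUF2 replicate 2. MAPK13 ranged from 1.17 to 1.46 and MAPKAPK5 stayed below -1.

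The replicate numbers are shared by the groups, but deviations of same-numbered libraries correlated at 0.09, 0.05 and -0.07 over 9913 genes, so the numbers do not pair them. A fit blocked on these numbers (replicate block) called 1207 genes higher and 536 lower, NUF2 was at -1.51 (adjusted p = 8.03e-16, edgeR), MAP2K6 at -3.61, and 21 other pathway genes were called higher and 0 lower. Each group was 1 hairpin in 1 line, mRNA was measured without protein or phosphorylation, and at 87 to 145 reads MAPK13 with shNC had the least depth of the 10 genes.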
